A study of Arabidopsis thaliana with 24 samples.

Results

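The comparison described here is that of atx1/2/4/5 with atx4/5 seedlings of Arabidopsis thaliana, which by label differ in the mutations of ATX1 and ATX2. Its members are the 24843 genes, of 32548 listed, that reached 1 normalised read count in 2 or more of the 14 libraries normalised together. By their labels, both genotypes are homozygous for mutations of ATX4 and ATX5, and atx1/2/4/5 is also homozygous for mutations of ATX1 and ATX2. Each group had 2 libraries, made from total RNA of whole 11-day-old seedlings raised on Murashige and Skoog medium under long days (16 h light, 23 °C; 8 h darkness, 22 °C). The same set held 2 libraries each of atx1/2, Col-0 (the wild-type accession), atx2/3/4/5, a jmj24/26/28 mutant and a WDR5A_RNAi line. The labels name no alleles, and they do not say that replicates came from separate plates or plants, so p-values reflect the variation among these particular libraries alone, and that variation may be technical.

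ATX proteins are SET-domain enzymes that add methyl groups to lysine 4 of histone H3, a mark found at transcribed genes. They work in COMPASS complexes together with shared core subunits such as WDR5A. ATX1 and ATX2 are close relatives of each other and of the animal Trithorax proteins, while ATX3, ATX4 and ATX5 form a separate subgroup. The series title names redundancy between such complexes as its subject.

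Levels are normalised read counts per gene, not scaled for gene length, so they compare libraries and not genes. Differences are atx1/2/4/5 minus atx4/5 on the scale log2(value + 1), given with their standard error (SE) from limma, and a gene was called where its Benjamini-Hochberg adjusted p over all 24843 genes was below 0.05. That scale understates the change of genes with few reads. The estimated depth was 30.5 and 31.3 M reads in the atx1/2/4/5 libraries and 25.7 and 23.9 M in the atx4/5 libraries (M, mega), and 1 read was worth between 0.834 and 1.210 normalised counts in these 4. Values and call losses with each of the 4 libraries left out in turn are given where they matter.

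The mutated loci themselves were examined first. ATX4 (AT4G27910, chromosome 4, 13893915 to 13900630 in the TAIR10.1 annotation) was low in both groups, at 37.9 and 21.2 in atx1/2/4/5 and 50.7 and 35.2 in atx4/5, against 502 and 498 in Col-0, and the difference between the groups was not called (adjusted p = 0.0555). It was called lower without atx1/2/4/5 replicate 1 (-0.96, adjusted p = 0.00122), without atx4/5 replicate 2 (-0.82, 0.0195) and under quantile normalization (-0.75, 0.0111). ATX5 (AT5G53430, chromosome 5, 21677146 to 21684122) was at 43.8 and 31.9 in atx1/2/4/5 and at 237 and 224 in atx4/5, against 472 and 547 in Col-0. Its transcript was thus lower in atx1/2/4/5 than in atx4/5 (log2 difference -2.59 ± 0.14 SE, adjusted p = 5.99e-09), although both groups carry an atx5 mutation. Neither group's ATX5 level touched the other's, and 115 and 105 were measured in atx2/3/4/5. The groups thus differed in ATX5 transcript as well as in their atx1 atx2 labels. The part of that difference in the results below, the comparison between backgrounds included, was not tested.

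ATX1 (AT2G31650, chromosome 2, 13455272 to 13462431) was at 568 and 191 in atx1/2/4/5 and at 266 and 296 in atx4/5, so its 2 atx1/2/4/5 libraries lay on either side of atx4/5. In atx1/2 it was at 181 and 181, against 258 and 257 in Col-0, so that replicate 2 of atx1/2/4/5 lay near atx1/2 and replicate 1 did not. These counts do not settle whether the library labelled atx1/2/4/5 replicate 1 carries the same ATX1 mutation, and counts of genes without it are given below. It was not called (log2 difference 0.23 ± 0.40 SE, adjusted p = 0.712), but without atx1/2/4/5 replicate 1 it was called lower (-0.55, adjusted p = 0.00954) and without replicate 2 it was called higher (1.02, adjusted p = 0.00012). ATX2 (AT1G05830, chromosome 1, 1754130 to 1761909) was at 1273 and 1393 in Col-0 and 1313 and 1318 in atx1/2. It was at 1382 and 1347 in atx1/2/4/5 and 1492 and 1595 in atx4/5. That fall of 0.18 ± 0.06 SE on the log2 scale (adjusted p = 0.0361) was not called without atx1/2/4/5 replicate 1 (adjusted p = 0.0754), without replicate 2 (0.162), without atx4/5 replicate 2 (0.239) or with column totals set equal (0.791). ATX3 (AT3G61740) was at 428 and 391 in atx1/2/4/5 and 552 and 487 in atx4/5 (-0.34 ± 0.10 SE, adjusted p = 0.0143), a call lost without atx1/2/4/5 replicate 2 (adjusted p = 0.12), without atx4/5 replicate 1 (0.14) and with column totals set equal (0.156). In Col-0 ATX3 was at 388 and 384, below both atx4/5 libraries, and in atx1/2 it was at 444 and 437. Counts per gene take in reads from any part of it, so they do not show whether a full transcript is made. Directions are given for the libraries as labelled. Over all genes with a mean of at least 10, the replicates of atx1/2/4/5 correlated at 0.991 and those of atx4/5 at 0.992, and 1.62% and 1.34% of genes differed by 2-fold or more between replicates.

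In all, 4074 genes were called higher and 4235 lower in atx1/2/4/5 than in atx4/5, which is 16.4% and 17% of the genes tested and 33.4% together. Of these, 1117 were higher and 647 lower by at least 2-fold, and 147 were higher and 28 lower by at least 8-fold. The median of all genes tested was 0.005. The middle called gene that rose did so by 0.57 and the middle one that fell stood at -0.49. Leaving out 1 of the 4 libraries at a time gave 2802 to 3227 genes higher and 3049 to 3575 lower. Without atx1/2/4/5 replicate 1 these were 3227 and 3575, and 76.8% of all calls were kept with 0 in the opposite direction. With column totals set equal, which raised the median of all genes to 0.15, the split became 6670 higher and 2590 lower. The shares of 16.4% and 17% are the background for the list counts below.

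**Figure D1:**
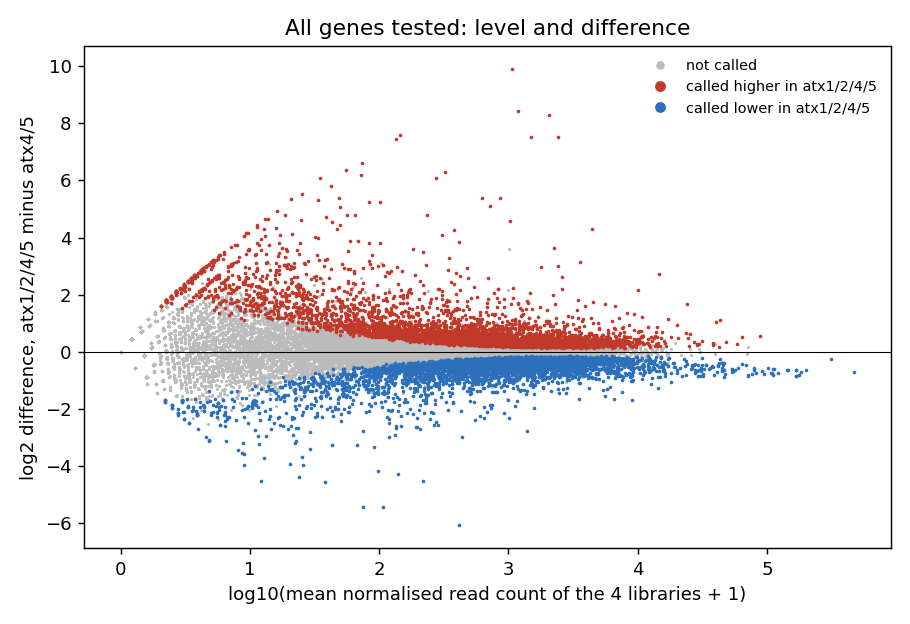
Each point is 1 of the 24843 genes tested. The x axis is the log10 of the mean normalised read count of the 4 libraries plus 1, and the y axis is the log2 difference, atx1/2/4/5 minus atx4/5. The 4074 genes called higher reach larger differences than the 4235 called lower, and the most abundant genes at the right edge lie mostly below 0.

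Direction differed with abundance. Of the 100 genes with the highest mean level, 16 were called higher and 76 lower, and of the 500 highest, 122 were higher and 258 lower. The 35 nuclear photosynthesis genes listed held 11.7% and 11.4% of all normalised counts in atx1/2/4/5, against 16.4% and 16.2% in atx4/5. Column totals were 26.2 and 26.1 M in atx1/2/4/5 and 29.2 and 28.9 M in atx4/5, so that setting the totals equal moves every gene of atx1/2/4/5 upwards.

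The same pair of mutations was also present without those of ATX4 and ATX5. Between atx1/2 and Col-0, 20 genes were called higher and 50 lower (0.0805% and 0.201% of those tested, 0.282% together). These libraries are separate from the 4 compared above. Of the 20 that rose in atx1/2, 14 were also called higher in atx1/2/4/5 against atx4/5, which is 70% of the first list and 0.344% of the second. Of the 50 that fell, 38 were also called lower, 76% of the first list and 0.897% of the second. The directions were opposite for 1 and 3 genes. Genes called higher in atx1/2/4/5 had a median difference of 0.019 between atx1/2 and Col-0, and those called lower had -0.022. Across the 20498 genes with a mean of at least 10, which are not independent of each other, the 2 sets of differences had a Pearson r of 0.23.

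The test of the difference itself, the atx1 atx2 effect in atx4/5 less that in Col-0, called 2141 genes with a more positive effect in atx4/5 (8.62%) and 2357 with a more negative one (9.49%), 18.1% together. Side by side, atx4/5 against Col-0 gave 239 genes higher and 565 lower, and atx2/3/4/5 against atx4/5 gave 4340 higher and 4739 lower. These comparisons share the atx4/5 libraries with the main one and are given as counts only.

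Most of the 12 largest rises in atx1/2/4/5 were of genes known from defence, with few reads in atx4/5. Plant defensins are small secreted antimicrobial proteins, and those of the PDF1 group are known markers of combined jasmonate and ethylene signalling. PDF1.2a (AT5G44420) was at 4209 and 3943 in atx1/2/4/5 and 21.5 and 6.55 in atx4/5 (log2 difference 8.29 ± 0.58 SE, adjusted p = 5.16e-06). The difference was 9.08 without atx4/5 replicate 1 and 7.50 without replicate 2, and it was called in both cases. PDF1.2c (AT5G44430) was at 1991 and 2230 in atx1/2/4/5 and at 1.18 and 1.21 in atx4/5, about 1 read in each. The ratio of its reads was 1800, with a 95% exact interval for counting error of 498 to 14871. PDF1.3 (AT2G26010) was at 3127 and 2815 in atx1/2/4/5 and 20.6 and 11.1 in atx4/5 (7.52 ± 0.83 SE, adjusted p = 0.000259). PDF1.2b (AT2G26020) was at 212 and 319 in atx1/2/4/5 and 1.14 and 0.025 in atx4/5, a ratio of 454 (interval 81.1 to 17949). In atx1/2 none of the 4 defensin genes exceeded 31.4 in either library, and in atx2/3/4/5 they were again high, with PDF1.2a at 5177 and 2600.

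PDF1.2a and PDF1.2c are neighbours on chromosome 5, and PDF1.2b and PDF1.3 on chromosome 2. Along their annotated gene spans the bases of PDF1.2a matched 79.0% of those aligned in PDF1.2c, 87.5% in PDF1.2b and 79.7% in PDF1.3, so reads from their most similar stretches may have been shared out between copies and the split among the 4 is uncertain. The 250 bases before each annotated start, read from TAIR10.1, are shown because these 4 genes rose together. They are written 5′ to 3′ on the gene's strand, and capitals mark the letters GCCGCC, the core of the GCC box to which ethylene response factors are known to bind. The windows are chr5:17907639-17907888 on the minus strand for PDF1.2a, chr2:11088873-11089122 on the plus strand for PDF1.2b, chr5:17909508-17909757 on the minus strand for PDF1.2c and chr2:11087030-11087279 on the plus strand for PDF1.3.
PDF1.2a: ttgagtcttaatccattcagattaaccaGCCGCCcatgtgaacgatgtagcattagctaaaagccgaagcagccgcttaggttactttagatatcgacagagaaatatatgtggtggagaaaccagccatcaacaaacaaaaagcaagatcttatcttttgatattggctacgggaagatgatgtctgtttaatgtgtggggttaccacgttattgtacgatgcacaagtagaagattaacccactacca
PDF1.2b: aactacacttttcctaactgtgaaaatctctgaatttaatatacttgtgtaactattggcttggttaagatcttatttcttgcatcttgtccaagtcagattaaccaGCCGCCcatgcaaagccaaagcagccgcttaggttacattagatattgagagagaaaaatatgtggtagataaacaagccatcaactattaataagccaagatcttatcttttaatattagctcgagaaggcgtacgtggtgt
PDF1.2c: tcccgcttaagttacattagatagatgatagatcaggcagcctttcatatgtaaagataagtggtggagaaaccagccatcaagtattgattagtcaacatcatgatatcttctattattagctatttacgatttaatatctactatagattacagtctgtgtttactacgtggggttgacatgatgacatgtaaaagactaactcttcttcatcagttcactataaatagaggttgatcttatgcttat
PDF1.3: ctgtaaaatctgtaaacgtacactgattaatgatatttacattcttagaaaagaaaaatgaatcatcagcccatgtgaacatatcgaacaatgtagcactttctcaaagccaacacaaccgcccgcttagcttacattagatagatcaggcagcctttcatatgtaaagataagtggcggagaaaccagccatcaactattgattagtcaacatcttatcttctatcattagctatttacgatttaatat
A search on both strands (GCCGCC or GGCGGC) found 1 match in PDF1.2a, starting 222 bases before the start, and 1 in PDF1.2b, 143 bases before it. The windows of PDF1.2c and PDF1.3 held 0 matches. Of the 23272 protein-coding genes tested with such a window, 439 (1.89%) had a match. A match describes the sequence only.

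Jasmonate is a lipid-derived hormone of wound and defence responses, and of the 31 genes tested from its list 21 rose and 1 was called lower, a call that was kept without atx1/2/4/5 replicate 1 and lost without each of the other 3 libraries. Synthesis enzymes were among those that rose. LOX2, the chloroplast lipoxygenase that starts the pathway, was at 60336 and 57129 in atx1/2/4/5 and 25880 and 28686 in atx4/5 (log2 difference 1.11). AOC2, an allene oxide cyclase, was at 11871 and 10566 in atx1/2/4/5 and 5873 and 5839 in atx4/5, and OPR3, the oxophytodienoate reductase, was at 1838 and 1797 in atx1/2/4/5 and 1007 and 860 in atx4/5. AOS, the allene oxide synthase between them, stood at 0.14 and was not called. Among responsive genes, CORI3 (AT4G23600), a cystine lyase, was at 26945 and 24300 in atx1/2/4/5 and 3668 and 3996 in atx4/5 (2.74 ± 0.11 SE, adjusted p = 1.6e-08). In atx2/3/4/5 CORI3 was at 24737 and 28191. TAT3 (AT2G24850), a tyrosine aminotransferase, was at 1512 and 1295 in atx1/2/4/5 and 61.6 and 25.2 in atx4/5 (5.11 ± 0.32 SE, adjusted p = 6.57e-07), and the difference lay between 4.48 and 5.74 with 1 atx4/5 library left out. VSP1, a vegetative storage protein, was at 7090 and 5849 in atx1/2/4/5 and 732 and 708 in atx4/5, while VSP2 stood at 0.00. ORA59, an ethylene response factor known to act on PDF1.2, was at 368 and 285 in atx1/2/4/5 and 47.8 and 50.1 in atx4/5 (2.70).

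Salicylic acid is the hormone of defence against biotrophic pathogens, and 14 of 26 genes on its list rose while 0 fell, with a median of 0.94. In limma without adjustment, p was below 0.05 for 1 lower gene. PR1 (AT2G14610), the secreted protein used as its standard marker, was at 2893 and 1789 in atx1/2/4/5 and 1.55 and 16 in atx4/5 (8.43 ± 0.85 SE, adjusted p = 0.000152). Its difference was 7.06 without atx4/5 replicate 1 and 9.80 without replicate 2. In atx2/3/4/5 PR1 was at 2945 and 1540. PR2, a glucanase, was at 1905 and 2033 in atx1/2/4/5 and 74.8 and 85.7 in atx4/5 (4.60), and PR5, a thaumatin-like protein, was at 808 and 970 in atx1/2/4/5 and 180 and 185 in atx4/5 (2.27). ICS1, a synthesis gene, stood at 0.24 and the receptors NPR1, NPR3 and NPR4 between -0.21 and -0.01, none of them called. PBS3 (1.58), EDS5 (0.98) and SARD1 (1.23), also on this list, were called higher. Without atx1/2/4/5 replicate 1, 9 of the 26 were called higher. Of the list of pattern-triggered immunity, 11 of 21 genes rose and 1 was called lower, with 7 higher without that library and 0 lower without any of the 4 in turn. RBOHD, the oxidase of the immune oxidative burst, was at 3749 and 3565 in atx1/2/4/5 and 2203 and 2328 in atx4/5, and PAD3, which makes the phytoalexin camalexin, was at 631 and 786 in atx1/2/4/5 and 270 and 332 in atx4/5.

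Other genes among the largest rises ranked encode enzymes, several of them of defence metabolites. TPS04 (AT1G61120), geranyllinalool synthase, was at 479 and 606 in atx1/2/4/5 and 8.08 and 6.08 in atx4/5 (6.07 ± 0.72 SE, adjusted p = 0.000176). CYP82G1 (AT3G25180), the cytochrome P450 that turns geranyllinalool into a volatile homoterpene, was at 101 and 181 in atx1/2/4/5 and at 0.0428 and 2.3 in atx4/5, a read ratio of 121 (exact 95% interval 33.2 to 1002), and its log2 difference lay between 5.37 and 7.03 with 1 library left out. Both genes of this route were higher still in atx2/3/4/5, at 1997 and 1409 and at 689 and 372. BSMT1 (AT3G11480), a methyltransferase of benzoic and salicylic acid, was at 64.3 and 32 in atx1/2/4/5 and 0 in both atx4/5 libraries. Its atx1/2/4/5 mean of 48.2 was 13.7 times a floor of 3 reads per library, a ratio for the mean and not a bound for each library. NATA1 (AT2G39030), an acetyltransferase that acts on ornithine, was at 5845 and 3805 in atx1/2/4/5 and 24.5 and 25.1 in atx4/5 (7.52 ± 0.68 SE, adjusted p = 0.000102). In atx2/3/4/5 NATA1 was at 10086 and 8849. DXPS1 (AT3G21500), annotated as a deoxyxylulose-phosphate synthase, was at 348 and 227 in atx1/2/4/5 and 1.14 and 0.025 in atx4/5, and ELI3-2 (AT4G37990), annotated as a cinnamyl alcohol dehydrogenase, was at 133 and 154 in atx1/2/4/5 and 0.0214 and 1.16 in atx4/5. Their read ratios were 488 (87.4 to 19317) and 245 (43.6 to 9687).

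**Figure D2:**
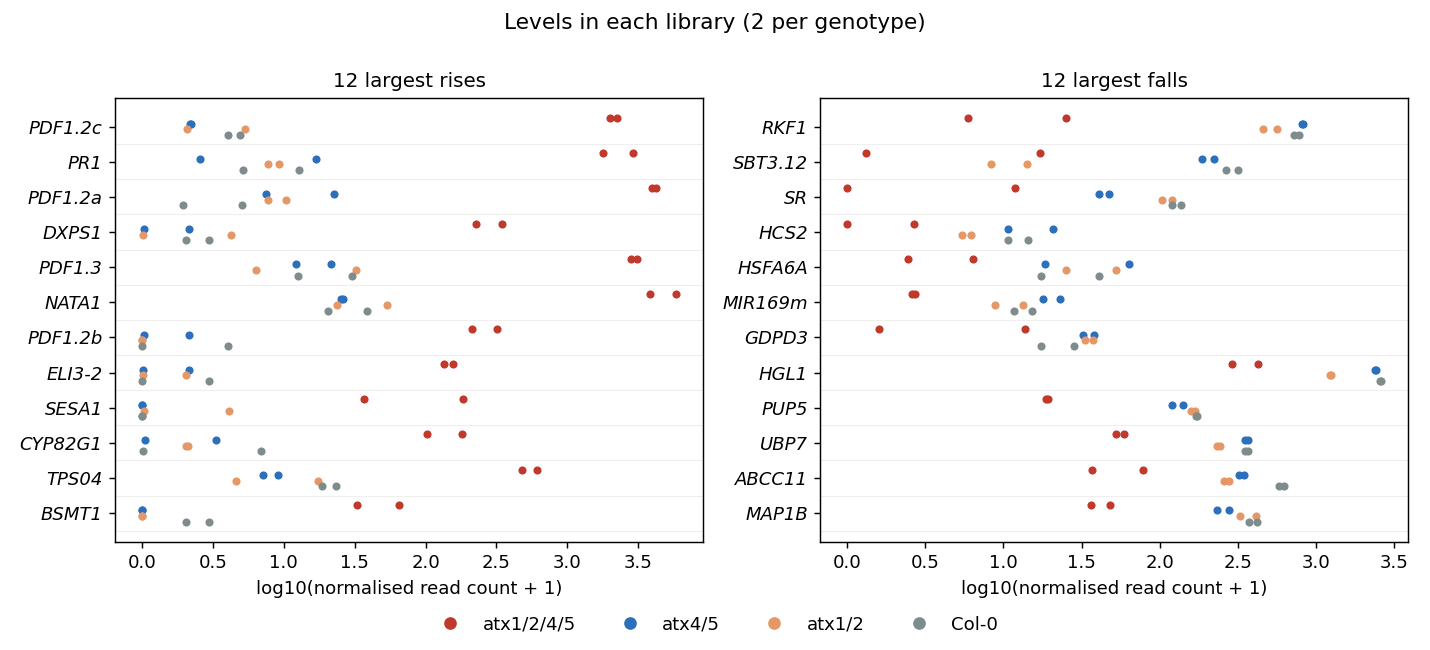
Levels of the 12 genes with the largest rise (left) and the 12 with the largest fall (right) among those ranked, 1 point per library, on an x axis of log10(normalised read count + 1). All atx1/2/4/5 points lie to the right of the atx4/5 points in the left panel and to their left in the right panel, a separation that the choice of genes requires, while the 2 atx1/2/4/5 points lie far apart for SBT3.12, SR and GDPD3.

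Genes of oxidative stress moved in both directions. Of 25 tested, 14 rose and 2 fell, with a median of 0.59, and 9 rose without atx4/5 replicate 2. CSD1 (AT1G08830), the cytosolic copper/zinc superoxide dismutase, was at 1770 and 1430 in atx1/2/4/5 and 858 and 757 in atx4/5 (0.98 ± 0.10 SE, adjusted p = 1.78e-06). Catalases, which break down hydrogen peroxide, split by gene. CAT3 (AT1G20620) was at 105441 and 104480 in atx1/2/4/5 and 69807 and 72940 in atx4/5 (0.56 ± 0.06 SE, adjusted p = 5.12e-06), whereas CAT1 (AT1G20630) was at 730 and 733 in atx1/2/4/5 and 1440 and 1491 in atx4/5 (2-fold lower, SE 0.09 on the log2 scale, adjusted p = 4.59e-07). CAT2, the catalase of photorespiration, was at 16371 and 14915 in atx1/2/4/5 and 30639 and 25514 in atx4/5 (-0.84). AOX1D, an alternative oxidase of mitochondria, was at 35 and 25.5 in atx1/2/4/5 and 0 in both atx4/5 libraries, with a mean 8.6 times the floor.

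The list of leaf senescence and chlorophyll breakdown was mixed, with 9 of 20 genes higher and 5 lower, and 3 lower without atx1/2/4/5 replicate 1 or without atx4/5 replicate 1. SAG13 (AT2G29350), a short-chain alcohol dehydrogenase, was at 1262 and 1172 in atx1/2/4/5 and 36.7 and 22.1 in atx4/5 (5.37 ± 0.37 SE, adjusted p = 4.81e-06). In atx2/3/4/5 SAG13 was at 5978 and 2866. SEN1 (AT4G35770), a gene induced by darkness, was at 1190 and 1018 in atx1/2/4/5 and 2235 and 2263 in atx4/5 (-1.03 ± 0.11 SE), and ORE9 (AT2G42620), the F-box protein also named MAX2, was at 592 and 595 in atx1/2/4/5 and 861 and 915 in atx4/5 (-0.58 ± 0.08 SE). NAP, a NAC factor that promotes leaf senescence, was at 111 and 64.2 in atx1/2/4/5 and 410 and 518 in atx4/5 (-2.44). Of the chlorophyll breakdown genes, NYE1, NYC1, PPH and PAO were not called, with differences of -0.28 to -0.10. RCCR (-0.26) and NOL (-0.21) were called lower. With 1 library left out, their differences were -0.31 to -0.21 and -0.30 to -0.13. Of all genes tested, 16.4% were called higher and 17% lower.

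Flavonoid and anthocyanin genes were mostly higher, 14 of 21 against 2 lower, with a median of 0.76. Early enzymes were among them. CHS, chalcone synthase, was at 8144 and 11831 in atx1/2/4/5 and 5060 and 5533 in atx4/5, and CHI (AT3G55120), chalcone isomerase, was at 917 and 1018 in atx1/2/4/5 and 569 and 570 in atx4/5 (0.76 ± 0.07 SE, adjusted p = 1.52e-06). FLS1 (AT5G08640), flavonol synthase, was at 1156 and 1237 in atx1/2/4/5 and 890 and 838 in atx4/5 (0.47 ± 0.08 SE). MYB113 (AT1G66370), an activator of anthocyanin genes, was at 13.7 and 20.5 in atx1/2/4/5 and 0 in both libraries of atx4/5, atx1/2 and Col-0. Its atx1/2/4/5 mean was 4.86 times the floor of atx4/5. MYBL2, a repressor of the pathway, fell to 1179 and 902 in atx1/2/4/5, against 2051 and 1917 in atx4/5. The count of higher members depends on the libraries, at 8 without atx1/2/4/5 replicate 2, 8 without atx4/5 replicate 1 and 9 without atx4/5 replicate 2. The replicate 2 library of atx1/2/4/5 had the higher level of the pair for CHS, LDOX (909 and 1553), TT8 (49.9 and 112) and several others.

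Of 35 nuclear genes for photosystem subunits, light-harvesting proteins and Rubisco, 34 were called lower and 0 higher by limma, also without adjustment, with a median of -0.64 and a range of -0.85 to 0.15. LHCB1.1 (AT1G29920), a light-harvesting protein of photosystem II, was at 120524 and 117567 in atx1/2/4/5 and 209854 and 220065 in atx4/5 (-0.85 ± 0.05 SE, adjusted p = 2.47e-08). LHCB2.1 (AT2G05100) was at 81377 and 80355 in atx1/2/4/5 and 141919 and 142194 in atx4/5 (-0.81 ± 0.05 SE, adjusted p = 2.76e-08), and LHCA1 (AT3G54890), of photosystem I, was at 123461 and 118400 in atx1/2/4/5 and 220824 and 212471 in atx4/5 (-0.84 ± 0.06 SE, adjusted p = 9.42e-08). RCA, Rubisco activase, was at 161606 and 156277 in atx1/2/4/5 and 258402 and 233256 in atx4/5. Members of the Rubisco small subunit family differed among themselves: RBCS2B stood at -0.66, RBCS3B at -0.64, RBCS1A at -0.26 and RBCS1B at 0.15, not called. LHCB1 and RBCS copies are nearly identical, so the split between them is uncertain. In atx2/3/4/5, which by label has no ATX1 mutation, the 35 genes held 9.8% and 10.3% of all normalised counts. There LHCB1.1 was at 97967 and 105203 and LHCA1 at 106352 and 109503. In atx1/2 against Col-0 the list's median was -0.02 and 0 of 35 were called. The difference between backgrounds was called for 34 of 35. Quantile normalization, which aligns the most abundant genes across libraries, lowered the count to 18 and brought LHCB1.1 to -0.12 (adjusted p = 0.139) and LHCA1 to -0.04 (0.445), neither of them called.

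Chlorophyll synthesis followed, with 16 of 21 genes lower and 0 higher, with or without adjustment (median -0.38). CAO (AT1G44446), chlorophyllide a oxygenase, was at 6164 and 6379 in atx1/2/4/5 and 10383 and 11041 in atx4/5 (-0.77 ± 0.06 SE, adjusted p = 1.25e-07). CHLM (AT4G25080), the magnesium protoporphyrin methyltransferase, was at 7712 and 7855 in atx1/2/4/5 and 13062 and 12823 in atx4/5 (-0.73 ± 0.06 SE), and CRD1 (AT3G56940), of the ring cyclase, was at 37631 and 36390 in atx1/2/4/5 and 56239 and 57618 in atx4/5 (-0.62 ± 0.05 SE). PORA, the protochlorophyllide oxidoreductase of dark-grown seedlings, had the largest fall of the list, to 88.7 and 50.6 in atx1/2/4/5, against 196 and 210 in atx4/5 (-1.58). Early steps shared with haem were mixed. GSA1, GSA2, HEMB1 and HEMF1 stood between -0.08 and 0.05 and were not called. HEMA1 (-0.55), HEMC (-0.27), HEME1 (-0.52) and HEME2 (-0.37) were called lower.

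Of 20 cytosolic ribosomal protein genes 17 were called higher and 0 lower (19 and 0 in limma without adjustment), with a median of 0.33 and a range of 0.02 to 0.54. RPS6A (AT4G31700) was at 7363 and 8774 in atx1/2/4/5 and 5599 and 5441 in atx4/5 (0.54 ± 0.07 SE, adjusted p = 2.31e-05), and RPS5B (AT2G37270) at 3155 and 3514 in atx1/2/4/5 and 2309 and 2524 in atx4/5 (0.46 ± 0.07 SE). Endoplasmic reticulum stress genes had 15 of 21 higher and 0 lower, with or without adjustment (median 0.36). The chaperone BIP1 (AT5G28540) was at 8138 and 8993 in atx1/2/4/5 and 5605 and 5819 in atx4/5 (0.58 ± 0.06 SE, adjusted p = 2.45e-06), and BIP2 (AT5G42020), of nearly the same sequence, at 7101 and 7479 in atx1/2/4/5 and 4328 and 4849 in atx4/5 (0.67 ± 0.08 SE). NAC103 (AT5G64060), a transcription factor of the unfolded protein response, was at 48.4 and 56.2 in atx1/2/4/5 and 8.12 and 7.22 in atx4/5 (2.62 ± 0.31 SE, adjusted p = 1.19e-05). The sensors IRE1A, IRE1B and BZIP28 stood between -0.09 and 0.05, not called, while BZIP17 was called higher (0.36). Under the alternatives tried, the list medians were 0.26 to 0.48 for ribosomal and 0.33 to 0.51 for reticulum genes.

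**Figure D3:**
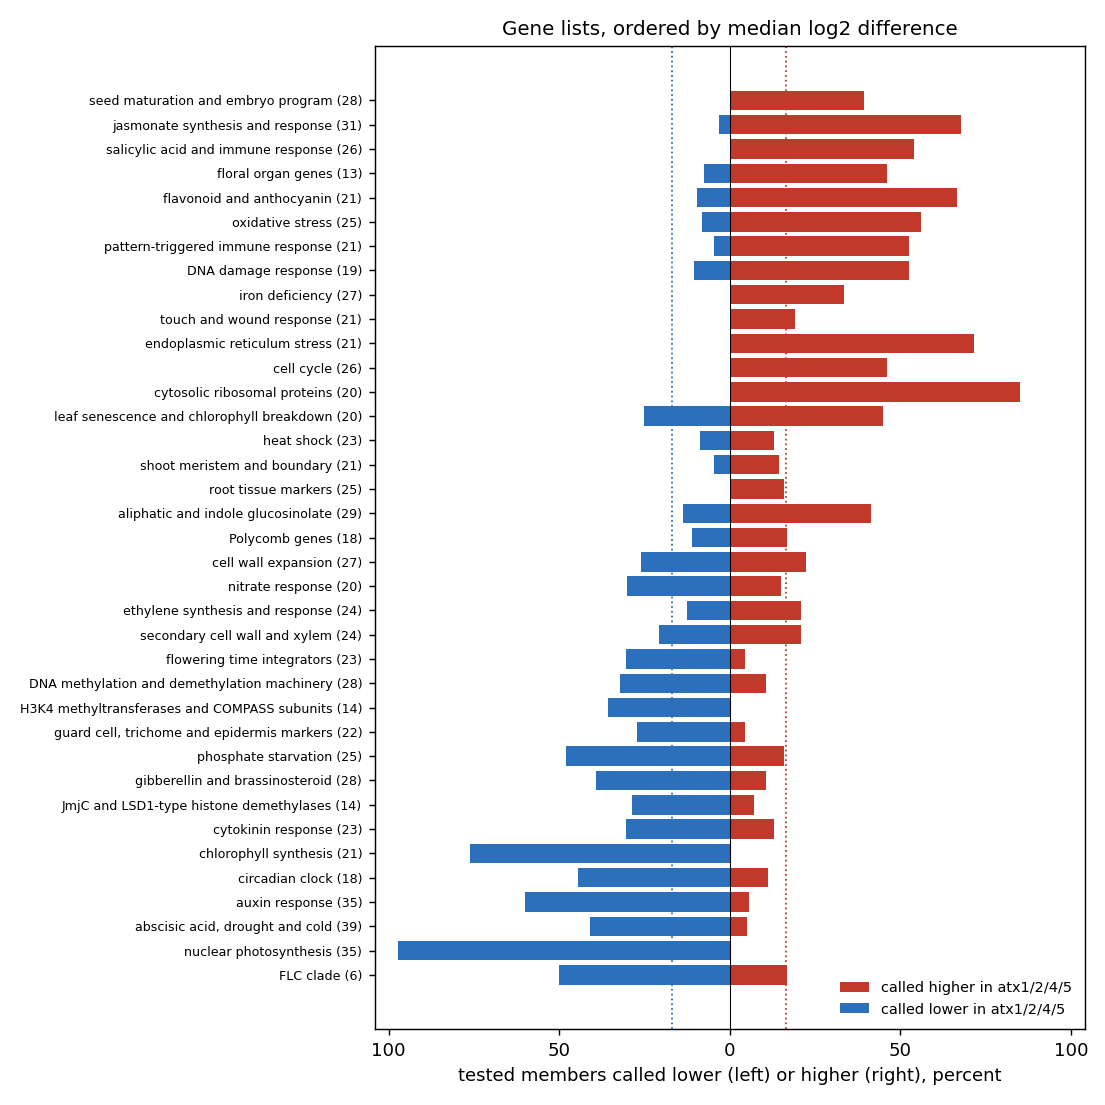
Share of each list's tested members (number in brackets) called lower (left bars) or higher (right bars) in atx1/2/4/5, with lists ordered by their median log2 difference. Dotted lines mark the shares over all genes, 17% lower and 16.4% higher. Nuclear photosynthesis lies farthest to the left with 34 of 35 lower, and cytosolic ribosomal proteins farthest to the right with 17 of 20 higher.

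Cell cycle genes had 12 of 26 higher and 0 lower (16 and 0 in limma without adjustment) and a median of 0.34, but 5 higher without atx1/2/4/5 replicate 2 or without atx4/5 replicate 1. PCNA1, the sliding clamp of DNA replication, was at 474 and 543 in atx1/2/4/5 and 298 and 326 in atx4/5 (0.70), and MCM6, of the replicative helicase, was at 420 and 398 in atx1/2/4/5 and 264 and 310 in atx4/5 (0.52). Of the DNA damage genes 10 of 19 rose and 2 fell (1 without atx4/5 replicate 2), and 5 rose without atx1/2/4/5 replicate 2 and 6 without atx4/5 replicate 1. GMI1, induced by double-strand breaks, was at 257 and 231 in atx1/2/4/5 and 50.6 and 71 in atx4/5 (2.00), and TSO2, a ribonucleotide reductase subunit, was at 2102 and 2454 in atx1/2/4/5 and 1183 and 1327 in atx4/5 (0.86). The kinase gene ATR fell to 103 and 130 in atx1/2/4/5, against 195 and 216 in atx4/5 (-0.82). Among all genes tested the shares were 16.4% higher and 17% lower.

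Auxin is the hormone of cell growth and patterning, and 21 of 35 of its response genes fell while 2 rose (median -0.44). IAA1 (AT4G14560), an Aux/IAA repressor induced by auxin, was at 295 and 311 in atx1/2/4/5 and 705 and 779 in atx4/5 (-1.29 ± 0.12 SE, adjusted p = 1.4e-06). IAA4 (AT5G43700) was at 1298 and 1246 in atx1/2/4/5 and 1933 and 1900 in atx4/5 (-0.59 ± 0.07 SE). GH3.6 (AT5G54510), which conjugates auxin to amino acids, was at 1048 and 949 in atx1/2/4/5 and 1850 and 1828 in atx4/5 (-0.88 ± 0.08 SE, adjusted p = 7.5e-07), whereas its relative GH3.3 rose to 880 and 870 in atx1/2/4/5, against 336 and 331 in atx4/5 (1.39). The SAUR19 to SAUR24 genes are near-identical copies whose counts may be shared. Gibberellin and brassinosteroid genes had 11 of 28 lower and 3 higher, with 1 higher without either atx1/2/4/5 library. CPD, a brassinosteroid synthesis P450, was at 4574 and 4617 in atx1/2/4/5 and 8082 and 9218 in atx4/5 (-0.91), and GASA6, a gibberellin-regulated peptide, was at 4328 and 3996 in atx1/2/4/5 and 11961 and 10171 in atx4/5 (-1.41). Over all genes 17% were lower and 16.4% higher, so the share called higher on both lists was below that of all genes.

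Of the genes of abscisic acid, drought and cold 16 of 39 fell and 2 rose, with a median of -0.50, and 10 fell without atx1/2/4/5 replicate 2. ABA1, zeaxanthin epoxidase, was at 10783 and 9718 in atx1/2/4/5 and 19107 and 18063 in atx4/5 (-0.86). P5CS1, the rate-limiting enzyme of proline synthesis, was at 9023 and 7756 in atx1/2/4/5 and 18067 and 22387 in atx4/5 (-1.27), and the transcription factor gene ABF2 was at 326 and 345 in atx1/2/4/5 and 720 and 710 in atx4/5 (-1.09). The lipid transfer protein genes LTP3 and LTP4 went the other way, LTP3 at 4883 and 4053 in atx1/2/4/5 and 756 and 691 in atx4/5 (2.62). Circadian clock genes had 8 of 18 lower and 2 higher, with 0 higher without either atx1/2/4/5 library and 1 without either atx4/5 library. RVE4 was at 1543 and 1414 in atx1/2/4/5 and 2730 and 2631 in atx4/5 (-0.86) and LNK2 at 5548 and 4959 in atx1/2/4/5 and 9575 and 8897 in atx4/5 (-0.82). CCA1 (-0.66), PRR7 (-0.58), PRR9 (-0.74) and ZTL (-0.49) were also called lower. PRR3 (0.77) and LUX (0.23) were those called higher, while LHY stood at 0.10 and TOC1 at 0.24, not called. The time of harvest is not given in the labels. Phosphate starvation genes had 12 of 25 lower and 4 higher, with SQD2, a sulfolipid synthase, at 2488 and 2849 in atx1/2/4/5 and 4635 and 4732 in atx4/5 (-0.81). With only the 4 libraries compared in the fit, 9 were lower and 2 higher. Over all genes 17% were lower and 16.4% higher, so the share called higher on each list of this paragraph was near or below that of all genes.

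Floral organ identity genes, normally kept off in seedlings, had 6 of 13 tested members higher and 1 lower, with 0 lower without replicate 2 of either group. SEP3, the MADS-box partner of all floral organ classes, was at 883 and 794 in atx1/2/4/5 and 154 and 126 in atx4/5 (2.58), and PI, of petal and stamen identity, was at 103 and 65.2 in atx1/2/4/5 and 27.8 and 24.1 in atx4/5 (1.62). SHP1 was at 79.3 and 67.6 in atx1/2/4/5 and 21.2 and 28.4 in atx4/5 (1.54), a call lost in 1 of the 4 leave-outs (adjusted p = 0.0571). The summed level of the 14 genes listed was 1153 and 1014 in atx1/2/4/5, 262 and 287 in atx4/5, and 313 to 549 in the other 10 libraries, atx2/3/4/5 included. SEP3 alone held 883 and 794 of the atx1/2/4/5 sums, so the sums mainly follow that gene. Upstream regulators were not called higher: AP1 stood at -0.13, LFY at -1.12 and FT at 5.38 and 0.623 in atx1/2/4/5 and 4.71 and 5.93 in atx4/5 (adjusted p = 0.344). SOC1, a flowering activator, fell to 785 and 603 in atx1/2/4/5, against 1466 and 1452 in atx4/5 (-1.08).

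The FLC clade holds MADS-box repressors of flowering. FLC (AT5G10140) was low throughout, at 10.6 and 4.59 in atx1/2/4/5 and 19 and 30.6 in atx4/5 (-1.64 ± 0.48 SE, adjusted p = 0.0151), and it was not called without atx1/2/4/5 replicate 2 (-1.11, adjusted p = 0.168) or without atx4/5 replicate 2 (-1.31, adjusted p = 0.127). MAF5 (AT5G65080) was at 5.13 and 7.38 in atx1/2/4/5 and 42.6 and 28 in atx4/5 (-2.31 ± 0.43 SE, adjusted p = 0.000575). It was also low in atx1/2, at 4.16 and 3.35 against 10.3 and 25.5 in Col-0, a difference that was not called. FLM (AT1G77080) was at 742 and 808 in atx1/2/4/5 and 1037 and 895 in atx4/5 (-0.31 ± 0.09 SE, adjusted p = 0.00988), a call lost without atx1/2/4/5 replicate 1 (adjusted p = 0.0912), without atx4/5 replicate 1 (0.137) and with column totals set equal (0.147). MAF2 stood at 0.22 and was called in 1 of the 4 leave-outs (largest adjusted p = 0.134).

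Seed maturation genes had 11 of 28 higher and 0 lower (17 and 0 in limma without adjustment), and this count moved with single libraries. SESA1 (AT4G27140), a seed storage albumin, was at 35.7 and 183 in atx1/2/4/5 and 0 in both atx4/5 libraries, with a mean 31.1 times the floor. Its log2 difference was 7.52 without atx1/2/4/5 replicate 1 and 5.20 without replicate 2. SESA2 was at 8.7 and 182 in atx1/2/4/5 and 0 in atx4/5. Its mean was 27.1 times the floor, which rests mainly on replicate 2, and its log2 difference was 3.28 to 7.51 when 1 library was left out. SESA1 and SESA2 lie side by side and are alike in sequence, so reads may be shared between them. The list's summed level was 2774 and 6707 in atx1/2/4/5 and 1320 and 545 in atx4/5, with 309 to 4959 in the other 10 libraries, so the list overlapped between genotypes. Without atx1/2/4/5 replicate 2, 5 of 28 were called, and without atx4/5 replicate 2, 6 were.

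The other lists of cell type markers moved less. Summed levels of 25 root genes were 92614 and 80327 in atx1/2/4/5 and 71362 and 55820 in atx4/5, and 4 of 25 were called higher, a share near that of all genes, with 0 without atx1/2/4/5 replicate 1, 0 without atx4/5 replicate 2 and 2 without atx4/5 replicate 1. The 22 guard cell, trichome and epidermis genes summed to 64483 and 70503 in atx1/2/4/5 and 69170 and 71025 in atx4/5. Shoot meristem and boundary genes summed to 4619 and 4926 in atx1/2/4/5 and 4716 and 4971 in atx4/5, and xylem and secondary wall genes to 51435 and 49304 in atx1/2/4/5 and 48935 and 44553 in atx4/5. In whole seedlings, fewer cells of a type and less RNA per cell cannot be told apart, and the part of tissue make-up in the results above was not tested.

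Lists of chromatin genes had between 27.8% (Polycomb genes) and 42.9% (DNA methylation and its removal) of their members called. Of all genes 33.4% were called, 17% lower and 16.4% higher. Polycomb genes had 3 of 18 higher and 2 lower, and JmjC and LSD1-type histone demethylases had 1 of 14 higher and 4 lower. Of 14 genes for H3K4 methyltransferases and COMPASS subunits 5 were lower, ATX2, ATX3 and ATX5 among them, with 3 lower without atx1/2/4/5 replicate 2, 3 without atx4/5 replicate 1 and 1 with column totals set equal. Of 28 genes for DNA methylation and its removal 9 were lower and 3 higher, and 0 were higher without atx1/2/4/5 replicate 2 or without atx4/5 replicate 1. The demethylase genes ROS1 and DML2 fell most, ROS1 to 482 and 420 in atx1/2/4/5, against 905 and 1014 in atx4/5 (-1.09), and DML2 to 55.1 and 39.9 in atx1/2/4/5, against 192 and 206 in atx4/5 (-2.06). NRPE1, the largest subunit of RNA polymerase V, was at 251 and 256 in atx1/2/4/5 and 422 and 520 in atx4/5 (-0.88). IBM1 (AT3G07610), an H3K9 demethylase that protects genes from CHG methylation, was at 759 and 694 in atx1/2/4/5 and 717 and 714 in atx4/5 (0.02 ± 0.08 SE, adjusted p = 0.9).

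The largest fall among the genes ranked was that of RKF1 (AT1G29750, chromosome 1, 10413853 to 10420774), a receptor-like kinase gene. It was at 24.1 and 4.93 in atx1/2/4/5 and 808 and 827 in atx4/5 (-6.07 ± 0.55 SE, adjusted p = 0.00011), with -7.11 without atx1/2/4/5 replicate 1 and -5.03 without replicate 2. In atx1/2 it was at 455 and 562 against 717 and 780 in Col-0, a difference of -0.56 that was not called. The neighbouring kinase genes, picked after their values were seen, fell as well and, unlike RKF1, were also called lower in atx1/2 against Col-0. AT1G29720 was at 57.9 and 36.5 in atx1/2/4/5 and 120 and 89.3 in atx4/5 (-1.16 ± 0.28 SE). Between atx1/2 and Col-0 its difference was -2.29 (adjusted p = 0.00103 in limma). AT1G29730 was at 1.7 and 2.45 in atx1/2/4/5 and 76.5 and 66.1 in atx4/5 (-4.56 ± 0.54 SE), and it was called lower in atx1/2 as well (-4.99, adjusted p = 0.000412). AT1G29740 was at 0.888 and 0 in atx1/2/4/5 and 15.2 and 15.5 in atx4/5 (-3.57), and at 0 in both atx1/2 libraries. AT1G29760, on the far side of RKF1, fell by 0.44.

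Other falls among those ranked differed in their level in atx1/2. SBT3.12 (AT4G21326), a subtilase, was at 16.2 and 0.314 in atx1/2/4/5 and 222 and 186 in atx4/5 (-5.42 ± 0.98 SE, adjusted p = 0.00348), from -7.28 to -3.57 without 1 of the atx1/2/4/5 libraries, and it was at 7.34 and 13.1 in atx1/2 against 263 and 318 in Col-0, a difference of -4.74 that was not called (adjusted p = 0.191). HGL1 (AT3G23640), annotated as a heteroglycan glucosidase, was at 425 and 289 in atx1/2/4/5 and 2384 and 2425 in atx4/5 (-2.78 ± 0.16 SE, adjusted p = 7.04e-07), and at 1240 and 1224 in atx1/2 against 2559 and 2607 in Col-0 (-1.07, called, adjusted p = 0.0246). ABCC11 (AT1G30420), an ABC transporter, was at 76.7 and 35.9 in atx1/2/4/5 and 345 and 319 in atx4/5 (-2.64 ± 0.25 SE), and at 256 and 278 in atx1/2 against 577 and 622 in Col-0 (-1.16, not called, adjusted p = 0.143). PUP5 (AT2G24220), a purine permease, averaged 18 ± 0.327 in atx1/2/4/5 and 129 ± 14.4 in atx4/5 (SD, n = 2 each) with a difference of -2.77 ± 0.22 SE (adjusted p = 2.75e-07 in limma), while atx1/2 had 157 and 166 against 171 and 170 in Col-0. MAP1B (AT3G25740), a methionine aminopeptidase, was at 47.2 and 35.2 in atx1/2/4/5 and 275 and 233 in atx4/5 (-2.60 ± 0.33 SE), with a difference of -0.10 in atx1/2. UBP7 (AT3G21280), a ubiquitin protease, was at 58.4 and 51.6 in atx1/2/4/5 and 350 and 365 in atx4/5 (-2.68 ± 0.15 SE, adjusted p = 8.23e-09), with 230 and 241 in atx1/2 against 365 and 352 in Col-0 (-0.60, not called, adjusted p = 0.157). The test of the difference between backgrounds was passed by HGL1, ABCC11, PUP5, MAP1B and UBP7, and not by SBT3.12 (-0.68, adjusted p = 0.799).

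The remaining falls among those ranked were of genes with few reads. MIR169m (AT3G26818), a microRNA gene whose family targets NF-YA transcripts, was at 1.73 and 1.6 in atx1/2/4/5 and 21.9 and 16.9 in atx4/5 (-2.93 ± 0.44 SE). HCS2 (AT1G37150), a holocarboxylase synthetase, was at 0 and 1.69 in atx1/2/4/5 and 9.66 and 19.9 in atx4/5, which is 2 reads against a mean of 14.8 (read ratio of atx4/5 to atx1/2/4/5 16.6, exact 95% interval 4.13 to 145), and a log2 difference of -3.90 to -2.47 when 1 library was left out. HSFA6A (AT5G43840), a heat stress transcription factor, was at 5.34 and 1.45 in atx1/2/4/5 and 17.5 and 62.7 in atx4/5 (-3.13 ± 0.67 SE), from -4.02 to -2.24 with 1 library left out. SR (AT4G11640), serine racemase, was at 10.8 and 0 in atx1/2/4/5 and 46.3 and 39.7 in atx4/5 (-3.67 ± 0.99 SE, adjusted p = 0.02), and was not called without atx4/5 replicate 1 (adjusted p = 0.0902) or replicate 2 (0.0771). Its difference was -5.46 without atx1/2/4/5 replicate 1 and -1.89 without replicate 2. GDPD3 (AT5G43300), a glycerophosphodiester phosphodiesterase, was at 0.587 and 12.8 in atx1/2/4/5 and 37.1 and 31.3 in atx4/5 (-2.91 ± 0.77 SE, adjusted p = 0.0126). It was not called without atx1/2/4/5 replicate 1 (-1.35, adjusted p = 0.0628), atx4/5 replicate 1 (-2.79, 0.069) or atx4/5 replicate 2 (-3.03, 0.0526), and stood at -4.47 without atx1/2/4/5 replicate 2.

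**Figure D4:**
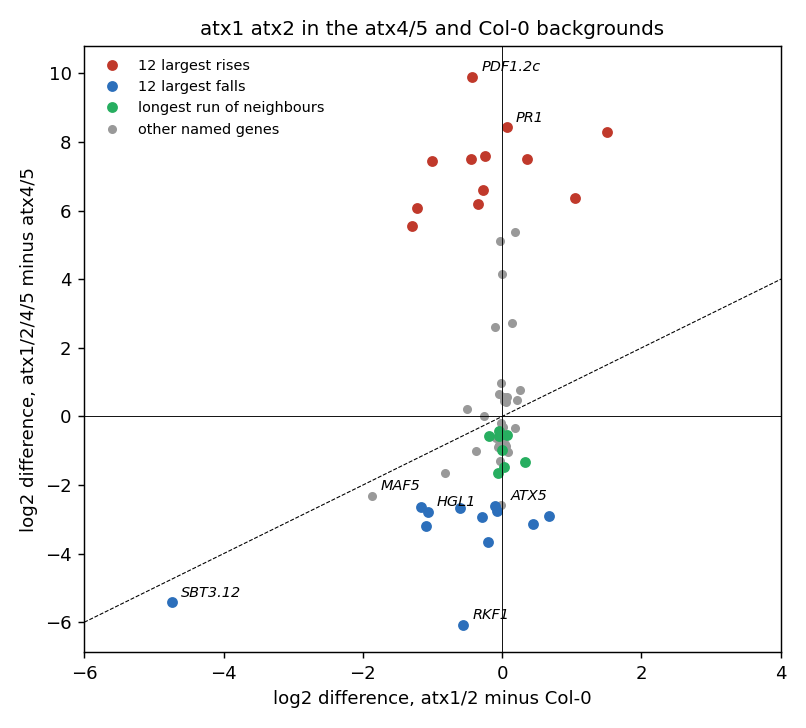
Difference between atx1/2/4/5 and atx4/5 (y axis) against that between atx1/2 and Col-0 (x axis), both in log2, for the 68 genes chosen by rule. No library is shared between the axes, and the dashed line marks equal differences. SBT3.12 lies near that line, at -5.42 and -4.74, while RKF1, at -6.07 and -0.56, and the genes with the largest rises lie far from it.

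Called genes were spread over the genome. The share called higher was 15.4% to 17.7% on the 5 chromosomes and the genes called lower ranged from 622 of 3813 on chromosome 2 to 1166 of 6624 on chromosome 1. Within 500 kb of ATX1, ATX2, ATX4 and ATX5, 14.7% to 18% of genes were higher and 17% to 18.6% lower, close to the 16.4% and 17% of all genes. Runs of at least 3 neighbouring tested genes called the same way numbered 146 for higher and 156 for lower genes, and 3 and 2 of these held 6 genes or more.

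The longest run was 8 genes, all lower, on chromosome 4 from 9488466 to 9544755. It holds RPP4, SNC1 and RPP5, disease resistance genes that encode intracellular immune receptors with TIR, nucleotide-binding and leucine-rich repeat domains. RPP4 (AT4G16860) was at 2919 and 2579 in atx1/2/4/5 and 3869 and 4313 in atx4/5 (-0.57 ± 0.08 SE, adjusted p = 4.65e-05). SNC1 (AT4G16890) was at 3815 and 3273 in atx1/2/4/5 and 4886 and 4660 in atx4/5 (-0.43 ± 0.07 SE, adjusted p = 0.000116). RPP5 (AT4G16950) was at 2912 and 2634 in atx1/2/4/5 and 3988 and 4181 in atx4/5 (-0.56 ± 0.06 SE, adjusted p = 7.04e-06). The largest fall among the receptor genes of the run was that of AT4G16900, at 262 and 266 in atx1/2/4/5 and 694 and 779 in atx4/5 (-1.47 ± 0.10 SE, adjusted p = 5.52e-08). AT4G16920 stood at -0.99, AT4G16940 at -1.32, the leucine-rich repeat gene AT4G16880 at -0.55 and the non-coding AT4G16892 at -1.65. Differences between atx1/2 and Col-0 were -0.19 to 0.33 for these 8 genes. The receptor genes among them are tandem copies of one family, and since the strand of the libraries is not given in the sources used here, reads of overlapping transcripts could not be separated.

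**Figure D5:**
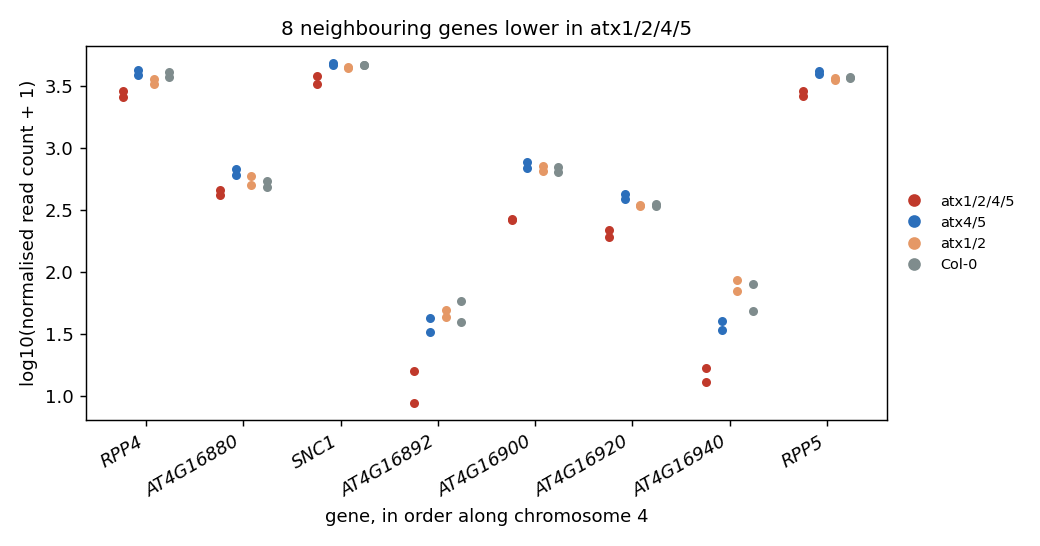
Levels of the 8 genes of the longest run in their order along chromosome 4, 1 point per library, on a y axis of log10(normalised read count + 1). Both atx1/2/4/5 points lie below both atx4/5 points for each gene, and all atx1/2 and Col-0 points also lie above both atx1/2/4/5 points.

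The longest runs of higher genes, 3 in number, held 6 each. On chromosome 1 from 20148419 to 20169684 these were AT1G53970, GLIP3, GLL22, AT1G54010, AT1G54020 and MVP1, with differences of 0.71 to 6.31. On chromosome 3 from 10213996 to 10235640 they were AT3G27570, ATPK7, AT3G27610, AOX1C, SMR7 and AT3G27640, with differences of 0.26 to 3.00. On chromosome 4 from 2231717 to 2327064 they were 5 neighbouring cysteine-rich receptor-like kinase genes, CRK36 to CRK40, and APR1, with differences of 0.45 to 3.75. All 3 were picked after their values were seen.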

How the data were processed

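RNA of whole seedlings was sequenced in 14 libraries, 2 for each of 7 genotypes. The deposited values are a signal per gene, normalised read counts that the authors made; the submitters' processing notes name HISAT2 2.2.0, edgeR and the TAIR10 build, and how these were combined is not given in the sources used here. From the values alone, their steps at low levels and near-equal column sums fit counts adjusted to a common library size, which is an inference. They are not whole counts, so no count model was used. Coordinates and gene names are those of the TAIR10.1 RefSeq annotation, whose nuclear sequence is that of TAIR10. No table column lacked a sample (0 columns).

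Values were analysed as log2(value + 1) with limma 3.58.1 in R 4.3.3, with a mean-variance trend, the robust option and 1 coefficient per genotype over all 14 libraries, after a filter of at least 1 in 2 or more libraries. Genes were called at a Benjamini-Hochberg adjusted p below 0.05, and the procedure was tested on simulated data. With 2 libraries against 2, a permutation test of a single gene cannot go below 0.333, so limma's shared estimate of the spread carries the calls. Intervals of read ratios and floors of 3 reads per library cover counting error only. Promoters were read for 250 bases before annotated starts.

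The members and the 37 gene lists (858 genes matched, 55 names not matched) were chosen with earlier results of these data known. Genes named by rule were ATX1 to ATX5, FLC, FT and IBM1; the 12 largest called rises and 12 largest falls among genes that carry a symbol, average 10 or more in whichever group is higher, and do not overlap between groups; up to 3 called members by adjusted p of the 10 lists with the largest share called; and the longest run of neighbouring called genes, 68 in all. Every other gene named was picked after its values were seen. Of the genes chosen by rule, 1 is counted but not reported here. Alternatives changed the pseudocount, filter, scaling, limma options, libraries in the fit, replicate block and each library left out.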

Additional observations from a re-analysis of the deposited data

Results flagged for a closer look

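For 56 of the 68 genes chosen by rule, the effect of atx1 atx2 in the atx4/5 background differed from that in Col-0 by limma's test of the difference itself (adjusted p below 0.05 over all genes, 2 libraries in each of 4 groups). Values below are the log2 effect in atx4/5 (atx1/2/4/5 minus atx4/5) less the log2 effect in Col-0 (atx1/2 minus Col-0), and over all genes 8.62% were called with a positive and 9.49% with a negative value. The genes were chosen for their change in atx1/2/4/5, so their share is a description.

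Defence and metabolite genes had the largest positive values. The defensin genes stood at 10.33 for PDF1.2c, 6.78 for PDF1.2a, 7.96 for PDF1.3 and 8.47 for PDF1.2b. PR1 stood at 8.36, NATA1 at 7.17, DXPS1 at 7.81 and ELI3-2 at 6.87. The homoterpene genes stood at 7.29 for TPS04 and 6.55 for CYP82G1, BSMT1 at 6.83 and the storage albumin SESA1 at 5.32. In jasmonate response CORI3 stood at 2.60 and TAT3 at 5.14, and the senescence-associated SAG13 at 5.17. Smaller positive values were those of the ribosomal genes RPS6A (0.51) and RPS5B (0.44), the reticulum genes BIP1 (0.51), BIP2 (0.72) and NAC103 (2.72), the flavonoid genes CHI (0.51) and MYB113 (4.15), and the oxidative stress genes CSD1 (0.99) and CAT3 (0.54).

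Among the falls ranked RKF1 stood at -5.50, HSFA6A at -3.56, MIR169m at -2.64 and GDPD3 at -3.58. HGL1 stood at -1.71, PUP5 at -2.69, UBP7 at -2.08, ABCC11 at -1.47 and MAP1B at -2.50. Photosynthesis and chlorophyll genes stood at -0.90 for LHCB1.1, -0.86 for LHCB2.1, -0.79 for LHCA1, -0.79 for CAO, -0.71 for CHLM and -0.54 for CRD1. Auxin genes stood at -0.82 for GH3.6, -1.26 for IAA1 and -0.58 for IAA4, and SEN1 at -1.11, ORE9 at -0.59 and CAT1 at -0.63. Of the mutated family, ATX3 stood at -0.53 and ATX5 at -2.58. The 8 neighbours on chromosome 4 stood at -0.39 for RPP4, -0.62 for AT4G16880, -0.38 for SNC1, -1.59 for AT4G16892, -1.50 for AT4G16900, -0.99 for AT4G16920, -1.65 for AT4G16940 and -0.52 for RPP5.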

How the results depend on the processing

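With column totals set equal, 6670 genes were called higher and 2590 lower, against 4074 and 4235, and the median of all genes moved to 0.15. The other alternatives that kept all 4 libraries left these counts within 1.5 times. Leaving out 1 library gave 2802 to 3227 genes higher, 3049 to 3575 lower, 890 to 1004 higher and 521 to 701 lower by at least 2-fold, and 3147 to 3991 whose effect differed between backgrounds. The group then left with 1 library was taken to vary like the others. Deviations of same-numbered libraries of atx1/2/4/5 and atx4/5 correlated at 0.0442. Over all 21 pairs of groups the correlations were positive, from 0.0074 to 0.279, with the highest between atx4/5 and Col-0. Not every pair passed 0.1 and the labels tie the numbers to nothing shared, so the samples were not treated as paired, although some groups deviated together. A fit with the replicate number as a block called 4567 higher and 4703 lower, and 5582 genes, against 4498, whose effect differed between backgrounds. ATX4 was called lower in that fit (-0.56, adjusted p = 0.0197). Of 1020 values of named genes under alternatives, 985 kept their call, 29 lost it, 6 gained one and 0 reversed. Below about 10 normalised counts, single reads move a difference, and a gene at 0 carries only a floor.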
